A study of Arabidopsis thaliana with 12 samples.

Results

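The comparison described here is that of ADR1-L2 DV leaves with Col-0 leaves, over all genes of the deposited table. It rests on 6 of the 12 leaf samples of the series, 3 of ADR1-L2 DV and 3 of Col-0. ADR1-L2 DV is an Arabidopsis thaliana line with the genotype ADR1-L2 D484V: a transgene under the native ADR1-L2 promoter, in the adr1-l2-4 mutant of the Col-0 background, that encodes an activation mimic of ADR1-L2 with a change in its MHD motif. Col-0 is the wild type and carries neither the transgene nor the mutation. The suppressed lines, ADR1-L2 D484V 26.6 and ADR1-L2 D484V 30.4, carry the transgene and the mutant background as well as a mutation in the receptor gene SADR1, and are used only to show where ADR1-L2 DV stood apart. Every sample pooled 2 leaves from at least 2 plants, and each genotype was sampled once in each of 3 independent experiments. The study grew its plants in short days, and the plants' age is not given in the sources used here.

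ADR1-L2 is a helper NLR, an intracellular immune receptor that acts downstream of sensor receptors. Lines with a receptor that signals without a pathogen stay small, die in patches and make salicylic acid, and are widely used to study the cost of defense to growth. Outside defense, a leaf under such stress is known to take apart protein and chloroplasts, to move nitrogen, sulfur and metals, and to slow cell expansion, through families of transporters, conjugating enzymes, wall enzymes and transcription factors. Those families are the subject here.

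The table gives 1 whole number per gene and genotype, read here as sequencing reads pooled over its 3 samples. These totalled 21277026 reads in ADR1-L2 DV and 20148132 in Col-0, and whether a value is the sum or the rounded mean of the 3 samples is not stated. Nothing in the values used shows the spread between samples. No SD, n or p therefore stands beside a value, and an interval is a 95% Clopper-Pearson interval that covers counting error only. Log2 ratios are those of ADR1-L2 DV over Col-0 after scaling by the median of ratios, with 1 read added to each scaled value. A gene is called higher or lower where it differed at least 2-fold and its 2 scaled values averaged at least 30 reads, and only called genes are said to be higher or lower. Of 28496 genes, 16358 were past this floor.

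The gene that the transgene encodes was checked first. ADR1-L2 (AT5G04720, chromosome 5, 1360589 to 1363907 of TAIR10.1, plus strand) had 8543 reads in ADR1-L2 DV and 1148 in Col-0, a log2 ratio of 2.62 (interval 2.53 to 2.71). Reads of the transgene and of the endogenous gene were not separated. Leaf mesophyll markers were abundant in both genotypes, and the 3 seed markers were at 0 in both. The 3 root markers summed to 10 reads in ADR1-L2 DV and 0 in Col-0, and the 4 floral markers to 13 in ADR1-L2 DV and 20 in Col-0. Some markers of leaf cell types were called. TMM of the stomatal lineage (log2 ratio 1.45) and GL2 of trichomes (1.10) were higher. So was the epidermal PDF1, with 384 reads in ADR1-L2 DV and 16 in Col-0 (4.23). CA1 of the mesophyll (-1.44), TRY of trichomes (-2.04), SEOR1 of the phloem (-1.67) and XCP1 of the xylem (-1.01) were lower. Each of these types also had markers that were not called. They include ATML1 of the epidermis (-0.13), FMA (0.57) and MYB60 (-0.04) of the stomatal lineage, and MYB0 of trichomes, with 0 reads. In the mesophyll RBCS1A (-0.75), CAB3 (-0.60) and RCA (-0.61) were not called. In the phloem SUC2 (-0.67) and APL (-0.63), and in the xylem IRX3 (-0.79) and IRX1 (-0.92), were not called either. The part of leaf cell types in the results below was not tested, and in whole leaves fewer cells of a type cannot be told apart from less RNA per cell.

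Over all genes, 1090 were higher and 990 lower in ADR1-L2 DV than in Col-0. These are 6.66% and 6.05% of the genes past the floor, the background for every count of family members below. The scaling sets the middle of the distribution near 0, so the median log2 ratio of 0.02 cannot show whether it moved. The quartiles were -0.33 and 0.33, and 318 genes were at least 4-fold higher against 184 at least 4-fold lower. Scaling by total reads adds 0.20 to the log2 ratio of the median gene and gives 1538 higher and 677 lower genes, so that 69.4% of the called genes are higher in place of 52.4%. The families described here were read against the median gene. Called genes were spread over the chromosomes, between 6.22% and 7.19% of the genes past the floor being higher on each of the 5 and between 5.41% and 7.10% lower. Genes called higher took 6.47% of all reads in ADR1-L2 DV and 1.97% in Col-0, and genes called lower took 4.22% in ADR1-L2 DV and 9.36% in Col-0.

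**Figure D1:**
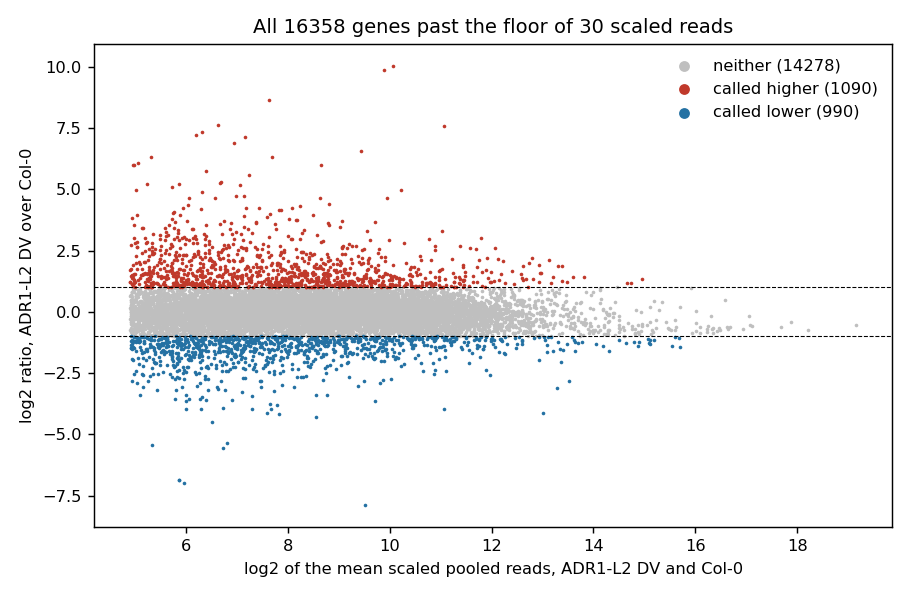
Log2 ratio of ADR1-L2 DV over Col-0 (vertical axis) against the log2 of the mean scaled pooled reads of both genotypes (horizontal axis), 1 point per gene past the floor. The 1090 genes called higher (red) and 990 called lower (blue) lie outside the dashed 2-fold lines, and the upper side reaches farther, with 318 genes at least 4-fold higher against 184 at least 4-fold lower.

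In reads, the largest gains and losses came from few genes, and these ranks follow reads, not transcripts, since long genes give more reads. UBQ10, a polyubiquitin gene, gained most, with 94606 reads in ADR1-L2 DV and 39511 in Col-0, a log2 ratio of 0.98 that stays just under the call and may include reads of its close copies. CAT3, a catalase gene, followed with 132907 reads in ADR1-L2 DV and 77896 in Col-0. PCR1, named for plant cadmium resistance, had 53066 reads in ADR1-L2 DV and 17121 in Col-0 (log2 ratio 1.35), and CWLP, a gene for a linker between cell wall and plasma membrane, had 24289 in ADR1-L2 DV and 7466 in Col-0 (1.42). The glucanase gene BGL2, the RING-type protein gene RING1, the kinase gene AT1G35710, the aspartyl protease gene AT5G10760, the transporter gene PEN3 and LURP1 completed the 10 largest gains. Besides UBQ10, CAT3 (log2 ratio 0.49), AT5G10760 (0.99), PEN3 (0.46) and LURP1 (0.97) were not called. The 10 largest losses were all genes of photosynthesis: CAB1, RBCS1A, RCA, LHB1B2, LHCB5, CAB3, LHCA4, LHCB3, CA1 and LHCB6. Only CA1, a carbonic anhydrase gene, was called among them, with 33093 reads in ADR1-L2 DV and 73937 in Col-0 (log2 ratio -1.44).

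Among genes averaging at least 200 scaled reads, the 10 largest log2 ratios above 0 ran between 4.40 and 10.04. DIN2 and DOX1 led them with 2491 and 2197 reads in ADR1-L2 DV and 1 read each in Col-0, at log2 ratios of 10.04 (interval 8.52 to 16.31) and 9.86 (8.34 to 16.13). NIT2, KTI1, AT5G39520 and CML41 were also in this group. Genes of small-molecule handling stood beside them. GLYI4, a gene of the glyoxalase I family that detoxifies reactive aldehydes, had 477 reads in ADR1-L2 DV and 4 in Col-0 (6.31). CCOAMT, for a caffeoyl-CoA methyltransferase of phenylpropanoid metabolism, had 883 in ADR1-L2 DV and 28 in Col-0 (4.65). CHX17, for a cation/proton exchanger, had 994 in ADR1-L2 DV and 38 in Col-0 (4.40).

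The 10 largest ratios below 0 ran between -3.40 and -7.88. XTH31, GolS3, AT5G05960, COR15A, AT3G45160, CORI3, AT2G27420 and MYB29 were among them. The others were AT3G24460, of the Serinc family that RefSeq links to serine and sphingolipid synthesis, with 33 reads in ADR1-L2 DV and 396 in Col-0 (-3.82), and KIN1, a cold-induced gene, with 31 in ADR1-L2 DV and 359 in Col-0 (-3.76).

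Genes of hormone conjugation were among the higher ones. GH3 enzymes join plant hormones and related acids to amino acids, which stores, activates or destroys them. Of 20 GH3 genes measured, 10 were past the floor, and of these 5 (50%) were higher, 0 were lower and 5 were neither. WES1, also known as GH3.5, which conjugates auxin, had 625 reads in ADR1-L2 DV and 38 in Col-0, a log2 ratio of 3.73 (interval 3.29 to 4.27). GH3.17 had 233 reads in ADR1-L2 DV and 14 in Col-0 (3.69, interval 3.00 to 4.67). DFL1, also known as GH3.6, had 329 in ADR1-L2 DV and 28 in Col-0 (3.23, interval 2.72 to 3.89). All of these are enzymes of the auxin-conjugating kind. GH3.3, of the same kind, had 134 reads in ADR1-L2 DV and 33 in Col-0 (1.71), and PBS3, whose enzyme works in salicylic acid synthesis, was the fifth, at 1.01. JAR1, which makes the active jasmonate conjugate, had 2306 reads in ADR1-L2 DV and 1815 in Col-0, a log2 ratio of 0.07.

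The promoter windows of the 3 GH3 genes with the largest ratios are shown because each holds the W-box letters TTGACC, a known binding motif of WRKY factors, and that of ADR1-L2 because its own promoter drives the transgene. ASN1, described below, is shown for its G-box letters CACGTG and I-box letters GATAAG, both known from light- and sugar-regulated plant promoters. Each window runs from 250 bases before to 50 bases after the gene start that RefSeq annotates on TAIR10.1, read in the direction of the gene. Capitals mark, on either strand, a W-box (TTGACC or the variant TTGACT), a G-box (CACGTG), an I-box (GATAAG) or a telo-box (AAACCCTA). The ADR1-L2 window is chr5:1360339-1360638 (plus strand), WES1 chr4:13653329-13653628 (plus), GH3.17 chr1:9824919-9825218 (plus), DFL1 chr5:22133639-22133938 (minus) and ASN1 chr3:17441382-17441681 (minus).
ADR1-L2: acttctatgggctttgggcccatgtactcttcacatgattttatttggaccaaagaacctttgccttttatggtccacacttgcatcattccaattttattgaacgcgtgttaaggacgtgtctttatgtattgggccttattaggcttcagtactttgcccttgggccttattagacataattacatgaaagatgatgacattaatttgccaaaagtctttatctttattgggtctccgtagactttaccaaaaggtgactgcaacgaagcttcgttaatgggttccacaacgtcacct
WES1: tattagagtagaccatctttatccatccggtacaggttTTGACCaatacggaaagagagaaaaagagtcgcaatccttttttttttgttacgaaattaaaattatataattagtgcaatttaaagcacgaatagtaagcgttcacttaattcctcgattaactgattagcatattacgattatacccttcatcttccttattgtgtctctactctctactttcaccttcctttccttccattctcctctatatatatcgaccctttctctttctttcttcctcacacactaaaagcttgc
GH3.17: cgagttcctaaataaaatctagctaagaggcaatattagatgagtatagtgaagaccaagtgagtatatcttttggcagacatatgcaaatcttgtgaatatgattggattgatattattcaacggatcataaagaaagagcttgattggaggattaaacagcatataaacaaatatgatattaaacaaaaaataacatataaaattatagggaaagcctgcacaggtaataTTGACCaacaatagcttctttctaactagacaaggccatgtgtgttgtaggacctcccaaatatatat
DFL1: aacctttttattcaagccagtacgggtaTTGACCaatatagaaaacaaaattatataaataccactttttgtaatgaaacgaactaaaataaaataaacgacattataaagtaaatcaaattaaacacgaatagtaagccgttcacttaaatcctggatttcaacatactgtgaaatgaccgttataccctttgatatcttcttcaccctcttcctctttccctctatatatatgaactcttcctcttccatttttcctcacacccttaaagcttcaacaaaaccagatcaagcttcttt
ASN1: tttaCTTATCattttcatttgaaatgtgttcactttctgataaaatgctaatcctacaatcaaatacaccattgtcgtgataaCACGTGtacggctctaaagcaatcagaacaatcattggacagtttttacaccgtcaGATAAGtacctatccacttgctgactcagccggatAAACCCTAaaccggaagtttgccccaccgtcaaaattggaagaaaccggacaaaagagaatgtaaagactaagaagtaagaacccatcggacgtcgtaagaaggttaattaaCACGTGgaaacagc
TTGACC begins 212 bases before the start in WES1, 222 in DFL1 and 18 in GH3.17, and none of the searched letters occurs in the ADR1-L2 window. ASN1 holds CACGTG 167 bases before the start and again after it.

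The letters TTGACC or TTGACT, searched on both strands, were in 505 of 1085 windows of genes called higher (46.5%) and in 251 of 985 windows of genes called lower (25.5%). Of all 16295 windows of genes past the floor, 5367 held them (32.9%). Of the 10 GH3 windows 4 held them (40%). TTGACC alone was in only the 3 GH3 windows shown (30%), where all genes had 14.5%. TTGACT was in 1 of the 10 GH3 windows (10%), where all genes had 22.1%. Letters of other motifs were more frequent in some lists than in all windows, and only some of those lists are given here. CACGTG was in 17 of 48 windows of photosystem and antenna genes (35.4%) and in 11 of 36 of starch genes (30.6%), where all genes had 9.09%. GATAAG was in 9 of 23 windows of the amino acid breakdown list (39.1%, or 8 of 22 without ASN1) and in 18 of 48 of photosystem and antenna genes (37.5%), where all genes had 15%. AAACCCTA, the telo-box letters, was in 110 of 307 windows of ribosomal protein genes (35.8%) and in 5.62% of all. A match of letters is a description of the window and not a bound site.

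Other auxin genes were mixed. Aux/IAA proteins repress auxin responses, and of 24 past the floor 1 was higher and 3 were lower. AXR3 had 270 reads in ADR1-L2 DV and 790 in Col-0 (-1.82). SHY2 had 342 in ADR1-L2 DV and 900 in Col-0 (-1.67), and PAP2, here IAA27 (AT4G29080), 147 in ADR1-L2 DV and 348 in Col-0 (-1.51). IAA29 was higher, with 85 in ADR1-L2 DV and 24 in Col-0 (1.51), but the 26.6 line had 132. Of 31 SAUR genes, small auxin-responsive genes tied to cell expansion, 5 were higher and 3 lower. SAUR36, known from senescing leaves, led with 92 reads in ADR1-L2 DV and 11 in Col-0 (2.68), while AT4G00880 had 457 in ADR1-L2 DV and 1200 in Col-0 (-1.67).

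Genes of other hormones were called at steps of synthesis, removal and response. Of 12 cytokinin genes past the floor, the 3 called higher were all CKX genes, which encode the oxidases that destroy cytokinin, and the 2 called lower were response regulators that cytokinin induces. CKX5 had 69 reads in ADR1-L2 DV and 18 in Col-0 (1.61). CKX1 had 52 in ADR1-L2 DV and 15 in Col-0 (1.46). CKX4 had 832 in ADR1-L2 DV and 318 in Col-0 (1.11). The lower end of the counting interval was under 2-fold for each of the 3 CKX genes, and none of them was 2-fold above both suppressed lines. ARR6 had 92 in ADR1-L2 DV and 318 in Col-0 (-2.05), and ARR9 235 in ADR1-L2 DV and 469 in Col-0 (-1.27). Among gibberellin genes, the inactivating oxidase gene GA2OX6 was higher, at 97 in ADR1-L2 DV and 13 in Col-0 (2.54). ATGA2OX1 of the same function was lower, at 12 in ADR1-L2 DV and 97 in Col-0 (-3.17). GA3OX1, for the last step of synthesis, was also lower, at 42 in ADR1-L2 DV and 115 in Col-0 (-1.70). The 26.6 line had only 37 reads of GA3OX1, so ADR1-L2 DV did not stand apart there. CCD8, a strigolactone synthesis gene, had 192 reads in ADR1-L2 DV and 2 in Col-0 (5.75, interval 4.43 to 9.36), with 4 in the 26.6 line and 1 in the 30.4 line. For abscisic acid, the synthesis gene NCED3 was lower, at 178 in ADR1-L2 DV and 299 in Col-0 (-1.02). Of 7 clade A PP2C genes, which encode inhibitors of its signalling, HAI1 was higher at 455 in ADR1-L2 DV and 70 in Col-0 (2.41) and HAI2 lower at 87 in ADR1-L2 DV and 176 in Col-0 (-1.28).

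A list of amino acid breakdown genes, which also holds the asparagine synthetase gene ASN1, was called in 1 direction. Of its 23 members, all past the floor, 8 were higher and 0 lower (34.8% higher), and the median log2 ratio was 0.75. Without ASN1, 7 of 22 were higher and 0 lower (31.8% higher), with a median of 0.56. AT4G33150, the gene of the bifunctional enzyme LKR/SDH that opens lysine breakdown, had 2685 reads in ADR1-L2 DV and 70 in Col-0 (4.96, interval 4.64 to 5.35). The 26.6 line had 359 and the 30.4 line 66. ASN1, for an asparagine synthetase that packs nitrogen for export, had 4389 reads in ADR1-L2 DV and 369 in Col-0 (3.29), with 1614 in the 26.6 line. PYD4, for an aminotransferase, had 265 in ADR1-L2 DV and 22 in Col-0 (3.26), and ERD5, the proline dehydrogenase gene, 1088 in ADR1-L2 DV and 176 in Col-0 (2.34). BCAT-2 of branched-chain amino acids (2.32), GDH2 (1.5), DIN4 (1.27) and HGO of tyrosine breakdown (1.25) were the rest. Apart from ASN1, the group spans lysine, proline, branched-chain and aromatic amino acids.

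Nitrogen assimilation genes went both ways. Of 16 members 5 were higher and 2 lower, with ASN1 and GDH2 shared with the group above. The cytosolic glutamine synthetase genes GLN1;4 and GLN1.3, which re-fix ammonium, had 819 and 774 reads in ADR1-L2 DV against 192 and 218 in Col-0, at log2 ratios of 1.81 and 1.55. NIR1, the nitrite reductase gene of primary assimilation in the plastid, was lower, with 2198 reads in ADR1-L2 DV and 5123 in Col-0 (-1.5). ASN2, the second asparagine synthetase gene here, was also lower, at 983 in ADR1-L2 DV and 1779 in Col-0 (-1.13), opposite to ASN1. Neither NIR1 nor ASN2 was 2-fold below both suppressed lines.

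Transporters of amino acids and nitrate went both ways within each family. UMAMIT proteins export amino acids, and of 26 past the floor 5 were higher and 9 lower. UMAMIT33 had 120 reads in ADR1-L2 DV and 2 in Col-0 (5.08). UMAMIT29 had 150 in ADR1-L2 DV and 4 in Col-0 (4.65). UMAMIT37 had 286 in ADR1-L2 DV and 30 in Col-0 (2.94). The other 2 higher members had log2 ratios of 1.23 (UMAMIT6) and 1.08 (UMAMIT45). UMAMIT22 had 21 in ADR1-L2 DV and 94 in Col-0 (-2.38). UMAMIT44 had 142 in ADR1-L2 DV and 491 in Col-0 (-2.06). UMAMIT36 had 69 in ADR1-L2 DV and 198 in Col-0 (-1.78). The family median was -0.19 (0.01 when scaled by total reads), so the largest ratios were not typical of the family. Of 22 amino acid permease genes, which encode importers, 6 were higher and 2 lower. AAT1 had 844 in ADR1-L2 DV and 92 in Col-0 (2.91) and LHT1, the main uptake carrier of leaf cells, 4241 in ADR1-L2 DV and 1546 in Col-0 (1.18), while ProT3 for proline had 123 in ADR1-L2 DV and 303 in Col-0 (-1.57). AAP2 had 1536 in ADR1-L2 DV and 3240 in Col-0 (-1.35).

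Of 25 nitrate and peptide transporter genes 5 were higher and 6 lower. NRT1.8, which takes nitrate out of the xylem, had 132 reads in ADR1-L2 DV and 2 in Col-0 (5.21, interval 3.88 to 8.83). NRT2.5, a high-affinity carrier of nitrogen-starved plants, had 181 in ADR1-L2 DV and 12 in Col-0 (3.54), and WR3, for a partner of such carriers, 1683 in ADR1-L2 DV and 458 in Col-0 (1.60). The peptide transporter gene PTR3 had 612 in ADR1-L2 DV and 91 in Col-0 (2.46). On the lower side, AT3G21670 had 2196 in ADR1-L2 DV and 5128 in Col-0 (-1.5). AT1G52190 had 435 in ADR1-L2 DV and 1001 in Col-0 (-1.48). The remaining named ones had fewer reads in both genotypes. PTR4 had 95 in ADR1-L2 DV and 252 in Col-0 (-1.67). AT1G59740 had 30 in ADR1-L2 DV and 126 in Col-0 (-2.30). Of 15 glutamate receptor-like channel genes, for amino acid-gated calcium channels, 6 were higher and 2 lower. By their names the higher members were of clades 1 and 2, led by GLR2.5 with 173 in ADR1-L2 DV and 33 in Col-0 (2.08) and GLR2.8 with 765 in ADR1-L2 DV and 160 in Col-0 (1.97), and the lower ones were GLUR2 with 108 in ADR1-L2 DV and 351 in Col-0 (-1.97) and GLR3.6 with 61 in ADR1-L2 DV and 143 in Col-0 (-1.49).

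NAC factors are plant transcription factors of senescence and stress, and their list had the most called members of the lists with none in the other direction. Of 100 NAC genes 46 were past the floor, and 16 of these were higher and 0 lower (34.8% higher), with a median log2 ratio of 0.72 and a lowest value of -0.18. Of the 16, 15 were also at least 2-fold above both suppressed lines. The symbol NAC3 stands in RefSeq for 2 genes, and both were higher: AT3G15500 had 231 reads in ADR1-L2 DV and 4 in Col-0 (5.27, interval 4.20 to 7.46), and AT3G29035 had 212 in ADR1-L2 DV and 6 in Col-0 (4.66). NAC019, a close relative of AT3G15500 in stress responses, had 510 in ADR1-L2 DV and 23 in Col-0 (4.14). NAC047 had 256 in ADR1-L2 DV and 16 in Col-0 (3.64). For contrast, of 46 WRKY genes past the floor, a defense family, 22 were higher and 1 lower (47.8% higher), led by WRKY41 with 248 in ADR1-L2 DV and 19 in Col-0 (3.36).

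Other transcription factor families were less one-sided or had fewer called members. Of 42 MYB genes 9 were higher and 6 lower. MYB2, of drought responses, had 229 reads in ADR1-L2 DV and 28 in Col-0 (2.71). MYB112 had 107 in ADR1-L2 DV and 13 in Col-0 (2.68). MYB15 had 113 in ADR1-L2 DV and 23 in Col-0 (1.97). Regulators of glucosinolate synthesis were on the lower side. MYB28 had 554 in ADR1-L2 DV and 1587 in Col-0 (-1.79). MYB34 had 153 in ADR1-L2 DV and 409 in Col-0 (-1.69). Of 38 ERF and DREB genes 4 were higher and 4 lower, with RAV2 at 1835 in ADR1-L2 DV and 323 in Col-0 (2.22). EBP, for an ethylene response factor, had 6492 in ADR1-L2 DV and 1231 in Col-0 (2.12), with 4134 in the 26.6 line and 3236 in the 30.4 line. DREB1A, a cold regulator, had 99 in ADR1-L2 DV and 371 in Col-0 (-2.17). Of 57 bHLH genes 6 were higher and 5 lower, and FBH4 and FBH3, related genes known as activators of CONSTANS, went opposite ways. FBH4 had 252 in ADR1-L2 DV and 87 in Col-0 (1.25), whereas FBH3 had 162 in ADR1-L2 DV and 499 in Col-0 (-1.89). ZAT and AZF zinc finger genes had 3 of 8 higher and 0 lower, with ZAT7 at 1325 in ADR1-L2 DV and 272 in Col-0 (2.00). When the whole counting interval had to lie beyond 2-fold, 1 ZAT or AZF gene remained. By that rule 3 MYB genes stayed higher and 3 lower, 2 bHLH genes higher and 2 lower. Of ERF and DREB genes 3 stayed higher and 1 lower. Of 18 TCP genes, which encode regulators of leaf growth, 3 were higher at log2 ratios of 1.03 to 1.25 and 0 lower, and none of the 3 was 2-fold above all other genotypes. SPL genes of phase change, at 1 higher and 1 lower of 16, and heat shock factors, at 1 and 1 of 14, sat at the background, and of 25 B-box genes of light signalling 0 were called in either direction.

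**Figure D2:**
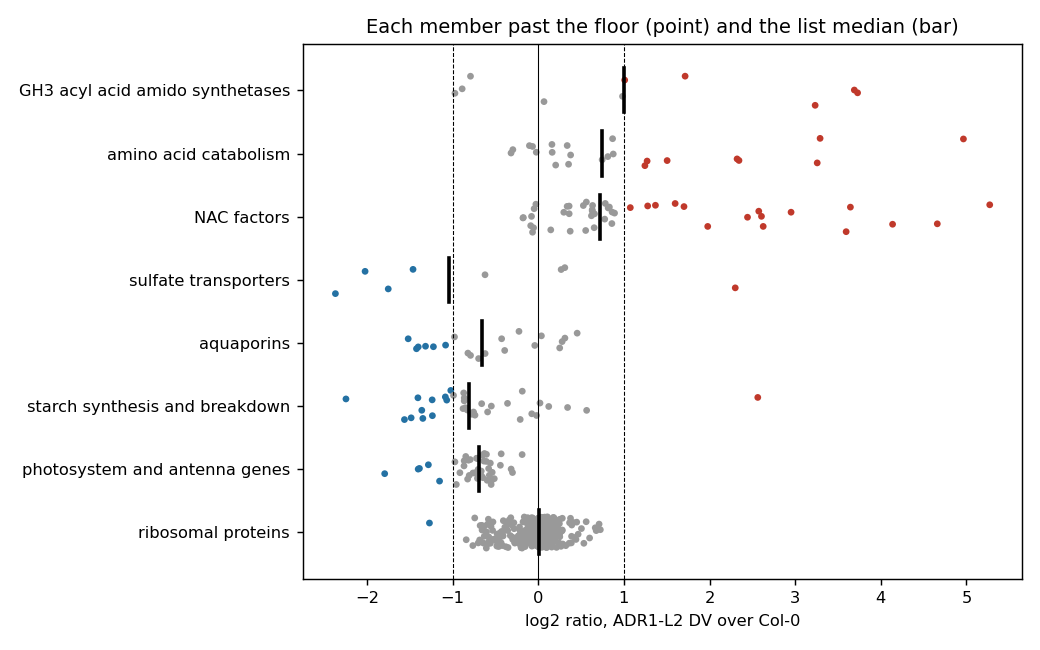
Log2 ratios of ADR1-L2 DV over Col-0 for each member past the floor (points, red called higher, blue called lower, grey neither) of 8 gene lists, with list medians as bars and dashed 2-fold lines; the vertical scatter within a list has no meaning. GH3, amino acid catabolism and NAC members reach far to the right, starch, aquaporin and sulfate transporter members lie mostly left of 0, all 48 photosystem and antenna members lie left of 0, and the 307 ribosomal protein members centre on 0.01.

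Starch genes were called lower more often than genes at large. Of 36 genes of starch synthesis and breakdown past the floor 11 were lower and 1 higher (30.6% lower), and the median log2 ratio was -0.81. When the whole counting interval had to lie beyond 2-fold, 7 lower and 1 higher remained. LSF2, for a phosphatase that frees starch for breakdown, had 139 reads in ADR1-L2 DV and 547 in Col-0 (-2.25). GBSS1, for the starch synthase that makes amylose, had 6382 in ADR1-L2 DV and 15544 in Col-0 (-1.56). BAM6 had 216 in ADR1-L2 DV and 500 in Col-0 (-1.48), and AMY2 345 in ADR1-L2 DV and 755 in Col-0 (-1.41), so genes of synthesis and of breakdown are both among the lower ones. AMY1, for an alpha-amylase outside the plastid, was the exception, with 1439 reads in ADR1-L2 DV and 200 in Col-0 (2.56). The list made up 0.400% of all reads in ADR1-L2 DV and 0.626% in Col-0.

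Sugar signalling and transport genes were mixed. Of 16 trehalose genes 2 were higher and 4 lower. TPS9, of the class II synthase-like genes, had 408 reads in ADR1-L2 DV and 84 in Col-0 (1.99), while TPS1, the active synthase gene, had 834 in ADR1-L2 DV and 1514 in Col-0 (-1.14). TPS5 had 523 in ADR1-L2 DV and 1031 in Col-0 (-1.26), and the phosphatase genes TPPH and TPPE 82 and 198 reads in ADR1-L2 DV against 237 and 492 in Col-0. Of 6 galactinol and raffinose synthase genes past the floor 2 were higher and 2 lower, GolS3 (above) and GolS2. GolS2, of galactinol synthesis, had 788 in ADR1-L2 DV and 1586 in Col-0 (-1.29), and SIP2 and DIN10, related to enzymes that act on raffinose sugars, had 2376 and 1596 reads in ADR1-L2 DV against 496 and 345 in Col-0 (1.98 and 1.93). Of 19 sugar transporter genes 3 were higher and 3 lower. SAG29, a SWEET gene of senescence, had 331 in ADR1-L2 DV and 1 in Col-0 (7.13). SUC5 had 103 in ADR1-L2 DV and 13 in Col-0 (2.62). STP1, for a plasma membrane hexose importer, had 3994 in ADR1-L2 DV and 1407 in Col-0 (1.23). The lower members were all SWEET genes. SWEET17, of vacuolar fructose, had 210 in ADR1-L2 DV and 563 in Col-0 (-1.70). SWEET4 had 45 in ADR1-L2 DV and 109 in Col-0 (-1.53). SWEET13 had 182 in ADR1-L2 DV and 363 in Col-0 (-1.27).

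Photosystem and antenna genes lay below their Col-0 level by mostly small amounts. All 48 nuclear members had log2 ratios below 0, between -1.79 and -0.19, with a median of -0.70 (-0.50 and 47 below 0 when scaled by total reads), yet only 5 passed the 2-fold call (10.4% lower). Their reads made up 13.5% of all reads in ADR1-L2 DV (interval 13.50 to 13.53) and 18.1% in Col-0 (interval 18.11 to 18.15). LHCB4.3, a light-dependent antenna gene, had 417 reads in ADR1-L2 DV and 1194 in Col-0 (-1.79), but also 297 in the 26.6 line. LHCB2.3 had 11967 in ADR1-L2 DV and 26078 in Col-0 (-1.40). Lhca6 had 1384 in ADR1-L2 DV and 2987 in Col-0 (-1.39), and PSI-P, a thylakoid membrane gene, 17129 in ADR1-L2 DV and 34374 in Col-0 (-1.28). Reads of near-identical antenna genes may have been split between copies. The 9 fatty acid desaturase genes past the floor had a median of -0.80. FAD8, for a plastid desaturase, was the 1 called, at 615 in ADR1-L2 DV and 1280 in Col-0 (-1.33). Of 21 carotenoid and tocopherol genes 2 were higher and 3 lower, CCD8 (above, 5.75) being one of the higher ones. When the whole counting interval had to lie beyond 2-fold 1 of each remained, CCD8 on the higher side. HPT1, of tocopherol synthesis, had 848 in ADR1-L2 DV and 329 in Col-0 (1.09), and VTE1, of a later cyclase step, had 624 in ADR1-L2 DV and 1113 in Col-0 (-1.11).

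**Figure D3:**
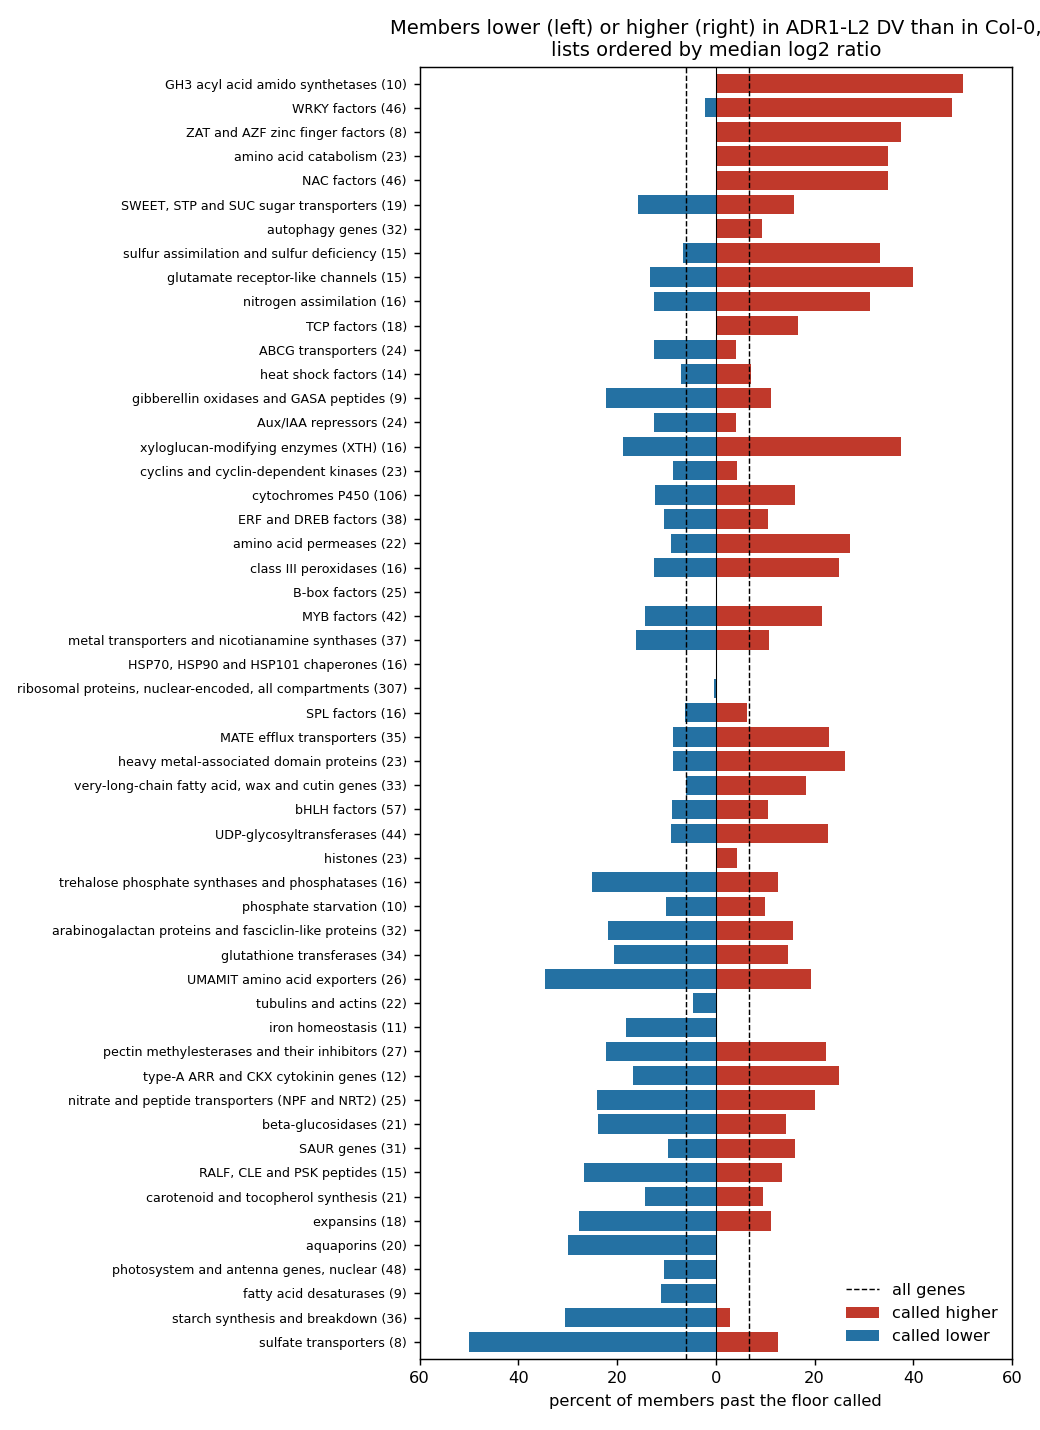
Percent of members past the floor called higher (red, to the right) or lower (blue, to the left) in ADR1-L2 DV against Col-0, for lists with at least 8 members past the floor, whose number stands in parentheses. Dashed lines mark the 6.66% higher and 6.05% lower of all genes. GH3 (50%) and WRKY (47.8%) have the longest bars to the right and sulfate transporters (50%) the longest to the left, while ribosomal proteins, B-box factors and chaperones have almost none.

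Sulfur genes were called in both directions. Of 15 genes of sulfur assimilation and deficiency 5 were higher and 1 lower, SULTR1;2 and SULTR4;2 being counted in the next list as well. LSU1 and LSU3, induced by low sulfur, had 68 and 99 reads in ADR1-L2 DV against 4 and 15 in Col-0 (3.52 and 2.37). AT5G26220, of the ChaC-like family whose enzymes cut glutathione, had 147 in ADR1-L2 DV and 14 in Col-0 (3.03). SULTR1;2, for the main uptake carrier of sulfate, had 124 in ADR1-L2 DV and 20 in Col-0 (2.30). Of 8 sulfate transporter genes SULTR1;2 was the only one higher, 4 were lower (50%) and 3 were neither. SULTR2;1, of vascular sulfate transport, had 714 in ADR1-L2 DV and 3044 in Col-0 (-2.37). SULTR4;2, of export from the vacuole, had 26 in ADR1-L2 DV and 90 in Col-0 (-2.02). SULTR3;4 had 37 in ADR1-L2 DV and 105 in Col-0 (-1.75). SULTR3;1 had 858 in ADR1-L2 DV and 1951 in Col-0 (-1.46). SULTR4;2 also had few reads in the 26.6 line, at 41, and SULTR3;4 in both suppressed lines, at 52 in the 26.6 line and 43 in the 30.4 line.

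Of 37 metal transporter and nicotianamine synthase genes 4 were higher and 6 lower. When the whole counting interval had to lie beyond 2-fold, 2 higher and 3 lower remained. NAS1 and NAS4, for nicotianamine synthases, had 23 and 49 reads in ADR1-L2 DV against 167 and 294 in Col-0 (-3.08 and -2.83). YSL7 and YSL3, for carriers of metal complexes, were higher, with 137 and 3333 reads in ADR1-L2 DV against 5 and 1104 in Col-0 (4.26 and 1.31). By symbol the list holds 3 NAS genes past the floor, of which 2 were lower and 1 neither, and 8 YSL genes, of which 2 were higher and 6 neither, a count made after their values were seen. HMA2, for a zinc exporter, had 334 in ADR1-L2 DV and 863 in Col-0 (-1.64), and PYE, a regulator of the iron response, 216 in ADR1-L2 DV and 443 in Col-0 (-1.31). Of 23 genes with a heavy metal-associated domain 6 were higher and 2 lower, from HIPP22 at 285 in ADR1-L2 DV and 8 in Col-0 (4.72) to AT1G51090 at 122 in ADR1-L2 DV and 694 in Col-0 (-2.77). Phosphate starvation genes were at the background, with 1 higher and 1 lower of 10, the phosphate carrier gene PHT1;4 at 86 in ADR1-L2 DV and 15 in Col-0 (2.17) and MGDC, of membrane lipid remodelling, at 17 in ADR1-L2 DV and 57 in Col-0 (-1.95).

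Lower genes were frequent among water channels and pectin-cutting enzymes, both of which serve cell expansion. Of 20 aquaporin genes past the floor 6 were lower and 0 higher (30% lower), with a median of -0.66. TIP2;2, of the vacuolar membrane, had 1636 reads in ADR1-L2 DV and 3867 in Col-0 (-1.52). RD28, of the plasma membrane, had 646 in ADR1-L2 DV and 1328 in Col-0 (-1.32). NIP6;1, which carries boric acid, had 227 in ADR1-L2 DV and 496 in Col-0 (-1.40). PIP2;8 had 21 in ADR1-L2 DV and 48 in Col-0 (-1.42). Of 32 pectin lyase-like genes, which include polygalacturonases, 10 were lower and 1 higher. AT3G09540 had 97 in ADR1-L2 DV and 510 in Col-0 (-2.66). AT1G48100 had 168 in ADR1-L2 DV and 678 in Col-0 (-2.28). AT1G10640 had 89 in ADR1-L2 DV and 14 in Col-0 (2.31).

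Other wall families held strong changes of both signs. Of 27 pectin methylesterase and inhibitor genes 6 were higher and 6 lower, with AT1G62760 at 179 reads in ADR1-L2 DV and 4 in Col-0 (4.91). ATPMEPCRB had 621 in ADR1-L2 DV and 64 in Col-0 (2.98). AT3G17130 had 26 in ADR1-L2 DV and 80 in Col-0 (-1.85). Of 16 XTH genes 6 were higher and 3 lower, and TCH4, a touch-induced member, had 459 in ADR1-L2 DV and 69 in Col-0 (2.44) while XTH32 had 399 in ADR1-L2 DV and 1224 in Col-0 (-1.89). Among 18 expansin genes, which loosen walls, 2 were higher and 5 lower. PNP-A, an expansin-related peptide gene, had 5104 in ADR1-L2 DV and 1117 in Col-0 (1.91), and EXPB3 113 in ADR1-L2 DV and 316 in Col-0 (-1.75). Of 32 arabinogalactan and fasciclin-like genes 5 were higher and 7 lower, among them AGP24 at 68 in ADR1-L2 DV and 7 in Col-0 (2.84). When the whole counting interval had to lie beyond 2-fold, 1 higher and 5 lower remained of these. AGP31 had 70 in ADR1-L2 DV and 254 in Col-0 (-2.12). FLA16 had 645 in ADR1-L2 DV and 1686 in Col-0 (-1.66). Class III peroxidases, many of which act in walls, had 4 of 16 higher and 2 lower. PA2 had 147 in ADR1-L2 DV and 5 in Col-0 (4.36). AT4G37520 had 1186 in ADR1-L2 DV and 143 in Col-0 (2.77), but PRXR1, with far more reads, had 21317 in ADR1-L2 DV and 40900 in Col-0 (-1.22).

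Cuticle and lipid carrier genes were also split. Of 33 wax and cutin genes 6 were higher and 2 lower. The higher ones named here encode fatty acid elongases, with KCS19 at 118 reads in ADR1-L2 DV and 15 in Col-0 (2.62). KCS12 had 489 in ADR1-L2 DV and 110 in Col-0 (1.86), and CER1, of alkane synthesis for wax, was lower at 768 in ADR1-L2 DV and 1629 in Col-0 (-1.36). Of the 6 higher genes only KCS19 was also 2-fold above both suppressed lines. Of 25 genes that RefSeq names as bifunctional inhibitor and lipid transfer proteins 6 were higher and 8 lower. AT1G48750 had 0 reads in ADR1-L2 DV and 112 in Col-0, with 71 in the 26.6 line and 155 in the 30.4 line. With 3 reads over the genotype put in place of the 0, it was 45.3-fold lower. Its counting interval reaches up to a log2 ratio of -5.18. AT3G53980 had 5 in ADR1-L2 DV and 209 in Col-0 (-5.37, interval -7.30 to -4.42).

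Large enzyme families changed at more than the background share in both directions. Of 106 cytochrome P450 genes 17 were higher and 13 lower. CYP76C2, of a subfamily that oxidises monoterpenols, had 318 reads in ADR1-L2 DV and 9 in Col-0 (4.72). CYP72A14 had 118 in ADR1-L2 DV and 11 in Col-0 (3.04). CYP706A6 had 1757 in ADR1-L2 DV and 5202 in Col-0 (-1.84) and CYP83A1, of glucosinolate synthesis, 2566 in ADR1-L2 DV and 6561 in Col-0 (-1.63). Of 44 UDP-glycosyltransferase genes with a UGT symbol 10 were higher and 4 lower, but of 52 genes under the RefSeq product name of that superfamily 5 were higher and 10 lower. Both groups together, 10 genes being in both, had 14 of 86 higher and 12 lower. UGT74E2, which glucosylates an auxin precursor, had 68 in ADR1-L2 DV and 3 in Col-0 (3.85). UGT71B5 had 100 in ADR1-L2 DV and 10 in Col-0 (2.93), and UGT76C2, which glucosylates cytokinin, had 66 in ADR1-L2 DV and 146 in Col-0 (-1.41). Of 34 glutathione transferase genes 5 were higher and 7 lower, with GSTU11 at 66 in ADR1-L2 DV and 7 in Col-0 (2.80) and GSTU20 at 814 in ADR1-L2 DV and 3565 in Col-0 (-2.41). Of 21 beta-glucosidase genes 3 were higher and 5 lower, DIN2 (above) being one of the higher ones, with BGLU31 at 319 in ADR1-L2 DV and 13 in Col-0 (4.24). BGLU46 had 152 in ADR1-L2 DV and 14 in Col-0 (3.08). BGLU47 had 8 in ADR1-L2 DV and 116 in Col-0 (-3.95).

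MATE and ABCG transporter genes were called in both directions. Of 35 MATE genes, which encode efflux carriers of organic compounds, 8 were higher and 3 lower. With the whole counting interval beyond 2-fold, 3 higher and 2 lower MATE genes remained. AT2G04050 had 104 reads in ADR1-L2 DV and 8 in Col-0 (3.28). ZF14 had 103 in ADR1-L2 DV and 9 in Col-0 (3.11). AT5G44050 had 24 in ADR1-L2 DV and 188 in Col-0 (-3.19). Of 24 ABCG genes 1 was higher (4.17%, under the share of all genes) and 3 lower (12.5%). When the whole counting interval had to lie beyond 2-fold, 1 higher and 1 lower remained. ABCG40, known as an abscisic acid importer, had 591 reads in ADR1-L2 DV and 2590 in Col-0 (-2.41), but 445 in the 26.6 line and 219 in the 30.4 line, so ADR1-L2 DV did not stand apart there. ABCG14, of cytokinin export from roots, had 47 in ADR1-L2 DV and 99 in Col-0 (-1.33).

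RefSeq product names were also used to group genes, which gave 204 families with at least 8 genes past the floor, and those given here, as well as the pectin lyase-like and lipid transfer protein families above, were picked from them after their values were seen. Of 20 genes with a cysteine/histidine-rich C1 domain, which binds lipids in other proteins, 10 were higher and 0 lower, with AT2G27660 at 1297 reads in ADR1-L2 DV and 167 in Col-0 (2.67). Of 15 berberine bridge enzyme-like genes, for flavin oxidases, 6 were higher and 2 lower. AT1G30700, AT1G30720 and AT1G30730, which are neighbours on chromosome 1, had 498, 302 and 106 reads in ADR1-L2 DV against 22, 22 and 12 in Col-0, and reads of such similar copies may be shared. Of 10 SPFH domain genes, which encode membrane scaffold proteins, 4 were higher, including HIR2 at 6499 in ADR1-L2 DV and 2064 in Col-0 (1.38). Against these, 4 of 8 genes with the RefSeq product name pathogenesis-related thaumatin superfamily protein were lower and 0 higher. AT1G20030 had 148 reads in ADR1-L2 DV and 545 in Col-0 (-2.15). Thaumatin-like genes under any other product name are outside this group, so the count does not describe the whole class. Of 11 remorin genes, for plasma membrane domain proteins, 4 were lower and 0 higher, with AT1G13920 at 24 in ADR1-L2 DV and 89 in Col-0 (-2.12).

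Peptide and turnover genes added smaller sets. Of 15 RALF, CLE and PSK peptide genes 2 were higher and 4 lower. The higher ones, PSK4 at 300 reads in ADR1-L2 DV and 87 in Col-0 (1.5) and PSK2 at 115 in ADR1-L2 DV and 31 in Col-0 (1.58), are phytosulfokine precursors, a growth peptide. CLE44 and CLE41, whose shared peptide holds back xylem formation, had 24 and 141 reads in ADR1-L2 DV against 83 and 267 in Col-0 (-2.02 and -1.19). Of 32 autophagy genes 3 were higher and 0 lower, with 7 higher when scaled by total reads, 2 when set against all other genotypes and 1 when the whole counting interval had to exceed 2-fold. The 3 are of the ATG8 family that coats the autophagosome: ATG8E with 973 in ADR1-L2 DV and 202 in Col-0 (1.98), ATG8H with 228 in ADR1-L2 DV and 76 in Col-0 (1.30) and ATG8B with 357 in ADR1-L2 DV and 137 in Col-0 (1.10). The median of the autophagy list was 0.45.

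Lists of core cell machinery held few called genes, with the cyclin list near the share of all genes. Of 307 ribosomal protein genes past the floor 0 were higher and 1 lower, with a median log2 ratio of 0.01 (0.20 when scaled by total reads). All 16 HSP70, HSP90 and HSP101 chaperone genes lay within the 2-fold limits, and the 7 small heat shock genes were under the floor. Of 23 histone genes 1 was called. HIS1-3, a drought-induced linker histone, had 2086 reads in ADR1-L2 DV and 227 in Col-0 (2.92, interval 2.72 to 3.13). Of 22 tubulin and actin genes 1 was lower, TUB6 at 1395 in ADR1-L2 DV and 2402 in Col-0 (-1.06). Among 23 cyclin and CDK genes 1 was higher and 2 lower, the D-type cyclin genes CYCD3;1 at 40 in ADR1-L2 DV and 80 in Col-0 (-1.25) and CYCD1;1 at 175 in ADR1-L2 DV and 325 in Col-0 (-1.17) being the lower ones. The 3 called cyclin and CDK genes are 13.0% of their list, where 12.7% of all genes were called, and none of the 3 remained when the whole counting interval had to lie beyond 2-fold.

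Set beside the suppressed lines, most called genes of ADR1-L2 DV stood apart. Of the 1090 genes called higher, 792 (72.7%) were also at least 2-fold above the highest of Col-0 and both suppressed lines, and of the 990 called lower, 625 (63.1%) were at least 2-fold below the lowest. The same ADR1-L2 DV values enter each of these comparisons. Of the families above, 7 of the 8 genes of the amino acid breakdown list (ASN1 among them), 15 of the 16 NAC genes and 5 of the 6 aquaporin genes stood apart in this way. For UMAMIT genes it was 3 of 5 higher and 4 of 9 lower, and of the 11 lower starch genes it was 7. The 26.6 line lay between Col-0 and ADR1-L2 DV for some of the genes with the largest ratios, such as ASN1, with 4389 reads in ADR1-L2 DV, 1614 in the 26.6 line and 369 in Col-0, and XTH24, with 5378 in ADR1-L2 DV, 2373 in the 26.6 line and 688 in Col-0. For CCD8, with 192 reads in ADR1-L2 DV, the 26.6 line (4), the 30.4 line (1) and Col-0 (2) were all near 0.

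**Figure D4:**
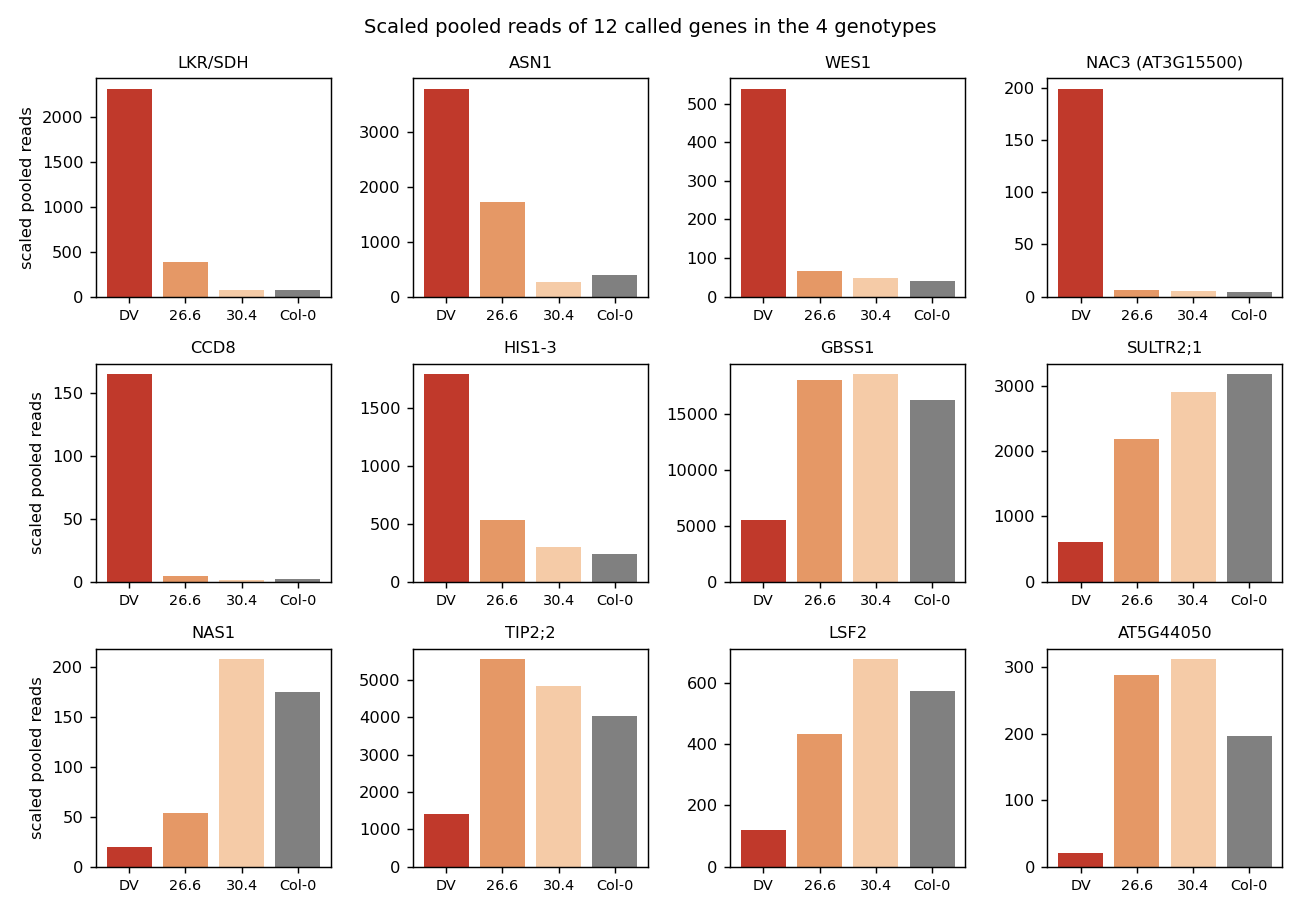
Scaled pooled reads (vertical axes, starting at 0) of 12 called genes, chosen after their values were seen, in ADR1-L2 DV, the 26.6 line, the 30.4 line and Col-0. In the first 6 panels the ADR1-L2 DV bar is the highest and in the last 6 the lowest, and the 26.6 bar stands between ADR1-L2 DV and Col-0 for such genes as ASN1, HIS1-3 and SULTR2;1; there are no error bars because each bar is 1 pooled value.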

How the data were processed

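RNA from 12 Arabidopsis leaf samples was sequenced by the authors, 3 for each of 4 genotypes, and samples were grouped by their titles. The authors deposited 1 table with whole-number pooled counts for every gene in every genotype. Their headers say RPKM, yet the whole numbers sum to between 20013826 and 21277026. As RPKM such sums would need a mean gene length, weighted by value, of at most 47.0 to 50.0 bases, so the values were used as counts. Whether they were scaled between samples in another way is not stated. Each is 1 pooled value for 3 samples, so there is no spread between samples and no test. The table also holds the authors' log2 fold changes and FDR values against Col-0, which were not used. The submitters' processing notes name TAIR10, and aligner, counter and strand setting are not given in the sources used. Antisense or overlapping genes could therefore share reads.

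Counts were divided by median-of-ratios factors over the 4 columns, from genes with at least 200 reads in each (1.16 for ADR1-L2 DV and 0.957 for Col-0). The pseudocount, floor and fold are given in the report. Gene names, product names and promoter windows were taken from RefSeq on TAIR10.1, which holds 28009 of the 28496 AGI codes. The 58 gene lists were defined by symbol, product name or AGI code, and members, lists and this comparison were chosen with earlier results of these data known. From each list up to 4 called members per direction with the largest log2 ratios could be named, with the 10 largest gains, losses and ratios over all genes. Genes named beside these, such as JAR1, PBS3 and the remaining members of amino acid breakdown, were chosen after their values were seen. The calculation of calls and intervals was checked on simulated counts with known changes and counting error only. Those counts held no variation between plants, so they cannot show how it affects the calls. Python 3 with numpy, pandas and scipy was used, and edgeR 4.0.16 only for scaling factors.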

Additional observations from a re-analysis of the deposited data

How the results depend on the processing

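No paired analysis was possible because each genotype has 1 pooled column, and for the same reason no replicate could be left out in turn. Without the floor 2184 genes were higher and 2205 lower, at 1.5-fold 2280 and 2412, and at 4-fold 318 and 184. Where the whole counting interval had to lie beyond 2-fold, 715 were higher and 594 lower, and 61 of 321 named called genes lost their call. Of the counts of called list members per direction, 35 then changed by more than 1.5-fold or fell to 0, and 79 did not. Against the nearest of the other 3 genotypes 792 were higher and 625 lower, and 83 of the 321 named genes lost their call, as 186 did at 4-fold. Scaling by total reads moved the median log2 ratio of all genes to 0.22, and 16 of the 321 named genes then lost their call. TMM gave 1051 and 1019 genes, upper-quartile scaling 1012 and 1086, a pseudocount of 0.5 gave 1091 and 999, one of 5 gave 1043 and 933, a floor of 10 reads 1406 and 1313, and one of 100 reads 737 and 678. No named gene lost its sign under these alternatives, and no list median of at least 0.5 in size did. For named genes this outcome was nearly fixed in advance. Each differed at least 2-fold, and the scalings shifted the median gene by at most 0.20 in log2. At a floor of 100 reads only 222 of the 321 were past it and could be checked. Alternative groupings of the amino acid breakdown list and of UDP-glycosyltransferases were added after seeing the data and stand beside those results. No organelle gene is in the table, so leaving organelle genes out of the read shares changed nothing. Counts in short lists rest on few reads per gene, and variation between plants was not measured by any of these settings.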
